A study of Mus musculus with 9 samples.

Results

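The interleukin-1 (IL-1) family genes described here are 10 of the 24341 genes listed in a liver expression table. They were chosen by name and read by role. The 4 agonists are Il1a, Il1b, Il18 and Il33. The 3 antagonists and decoys are Il1rn, Il1r2 and Il18bp. The 3 receptor genes are Il1r1, Il1rap and Il1rl1. All 10 had a row, and 9 of them passed the filter on low values. Bulk liver came from wild-type C57BL/6 mice that had received FGK45, an agonist antibody to CD40, or control 48 hours before, to ask how CD40 activation changed the liver. The anti-CD40 group holds 3 mice (mice 2, 5 and 9), and the control group, for which the labels name PBS, holds 6 mice (mice 3, 4, 7, 8, 11 and 12). All 9 mice shared strain, genotype, tissue and time point, and the age and sex of single mice are not given in the labels. The labels do not name a control antibody, and the study compared the groups at this 1 time point in 1 experiment.

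IL-1 family agonists are cytokines that act through pairs of receptor chains. IL-1α and IL-1β bind IL-1R1, which then recruits the accessory chain IL-1RAP and signals through MyD88 and IRAK kinases to NF-κB. IL-33 uses ST2, the product of Il1rl1, with the same accessory chain, and IL-18 uses its own receptor pair. IL-1β and IL-18 are made as inactive precursors that caspase-1 cleaves in the inflammasome, so their mRNA is not a measure of active cytokine. Each arm has brakes. IL-1RA (Il1rn) occupies IL-1R1 without signalling, IL-1R2 is a decoy that binds IL-1 without a signalling domain, and IL-18BP captures IL-18 in the extracellular fluid. In the liver, hepatocytes take up IL-1 signals in the acute phase response, Kupffer cells and recruited myeloid cells are sources of IL-1 and IL-18, and IL-33 is held in the nucleus of stromal, endothelial and epithelial cells.

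The promoter sequences shown first are those of the neighbouring agonist genes Il1a and Il1b and of the 3 brake genes, whose changes stand at the centre of the results. They were taken from RefSeq on GRCm38.p6, where all 10 members matched with 15 transcription starts in all. For Il1a and Il1b the 150 bases before the start are given, at chr2:129309973-129310122 and chr2:129371140-129371289, both on the minus strand. For Il1rn they are the 143 bases that end 8 bases before its first start (chr2:24336710-24336852, plus strand). For Il1r2 (chr1:40085974-40086003, plus strand) and Il18bp (chr7:102018263-102018292, minus strand) only a 30-base window around the match is given, because exons of the same gene overlap it by 19 and 30 bases. Sequences run 5′ to 3′, and capitals mark the letters that matched a motif.
Il1a: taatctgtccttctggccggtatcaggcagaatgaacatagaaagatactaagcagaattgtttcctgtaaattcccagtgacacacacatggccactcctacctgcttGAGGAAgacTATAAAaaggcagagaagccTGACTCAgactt
Il1b: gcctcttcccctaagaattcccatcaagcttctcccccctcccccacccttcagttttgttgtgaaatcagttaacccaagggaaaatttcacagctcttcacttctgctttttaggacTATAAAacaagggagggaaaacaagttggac
Il1rn: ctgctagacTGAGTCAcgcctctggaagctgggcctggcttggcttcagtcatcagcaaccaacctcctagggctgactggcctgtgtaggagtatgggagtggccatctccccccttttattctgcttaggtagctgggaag
Il1r2: ggtgctttTTCAAGGAACTTCCgactactc
Il18bp: tggagccagtgTTGCGGAAgtgccttcctg

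The 7 motif patterns, strings of letters known for transcription factors of inflammation or for the basal promoter, were searched on both strands of the 250 bases before each start. The TATA box (tataaa) began 32 bases before the Il1a start and 31 bases before the Il1b start, and 12.4% of the 32851 promoters in the table hold it. Its letters were also met 29 bases before the later Il33 start, 203 bases before the earlier one and 175 bases before Il18. An AP-1 site (tgantca, 6.75% of promoters) was present 12 bases before Il1a and 141 bases before the first Il1rn start, but not before the later Il1rn starts. Il1r2 held the GAS letters (ttcnnngaa, 7.02%) at 111 bases and the kappaB core (ggannttcc, 3.59%) at 106 bases before its start, and these 2 matches overlap in the capital run above. A C/EBP pattern (ttgcnnaa, 9.56%) lay 49 bases before Il18bp and was also met before Il1r1, Il1rl1 and Il33. The PU.1 letters (gaggaa, 23.3%) were met before Il1a, and the IRF core (gaaanngaa, 7.13%) before none of the members. A match describes letters in a window and does not show binding.

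The libraries were made with the QuantSeq method, which reads transcripts from the 3′ end, and the deposited values are FPKM (fragment counts divided by transcript length and by library size) with a floor of 0.01. Since FPKM divides by length and 3′ reads do not scale with length, levels are compared only within a gene. Gene-level values also add up transcripts of different form. The GENCODE annotation lists 4 full coding transcripts of Il1rap, with 360 to 685 codons, and 4 of Il1rl1, with 337 to 567 codons. The short forms of both genes are known as soluble proteins, so membrane and soluble forms could not be separated here. Il1rn also has 4 full coding transcripts, with 52 to 178 codons, and its forms were not separated either. The table gives no read totals. The steps between low values showed that 1 read was worth 0.884 to 1.15 times the average over the mice, so depth differed little, and reads quoted for a member are the smallest whole numbers that gave its 9 values. Marker genes set anti-CD40 mouse 5 apart, and control mouse 4 was the highest control for neutrophil genes. Anti-CD40 mouse 5 had a summed FPKM of 1099 over 10 genes of pancreatic acinar cells, against 27.8 and 33.4 in the other anti-CD40 mice and 71.5 to 196 in control mice. Cela1 made up most of this sum in every mouse but mouse 5. It was 315 FPKM in mouse 5, 27.0 and 29.3 in mice 2 and 9, and 69.3 to 188 in control. Cela3b was 223 in mouse 5 and at most 0.597 in the others. Control mouse 4 had the highest summed neutrophil genes among controls (157 FPKM), followed by control mouse 7 (84), the lowest being 19.3.

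Across the family, all 3 antagonists and decoys rose, whereas the agonists and the receptor genes were divided. Of 13807 genes tested with limma, 3240 (23.5%) were higher after anti-CD40 at an adjusted p under 0.05 and 2990 (21.7%) were lower, so a call in either direction was common. Among the 9 members tested, 6 were higher, 2 were lower and 1 was not called, and their median log2 fold change was 1.89 against 0.0056 over all genes tested. All 3 antagonists and decoys were higher, with a median log2 fold change of 3.90. Of the 4 agonists, 2 were higher, 1 was lower and 1 was not called, and of the 2 receptor genes tested, 1 was higher and 1 was lower. In 5 members every anti-CD40 mouse lay above every control mouse, as in 22.7% of all genes tested, and in 2 members every anti-CD40 mouse lay below, as in 19.6%. The changes of the members in order of role are shown with their intervals.

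**Figure D1:**
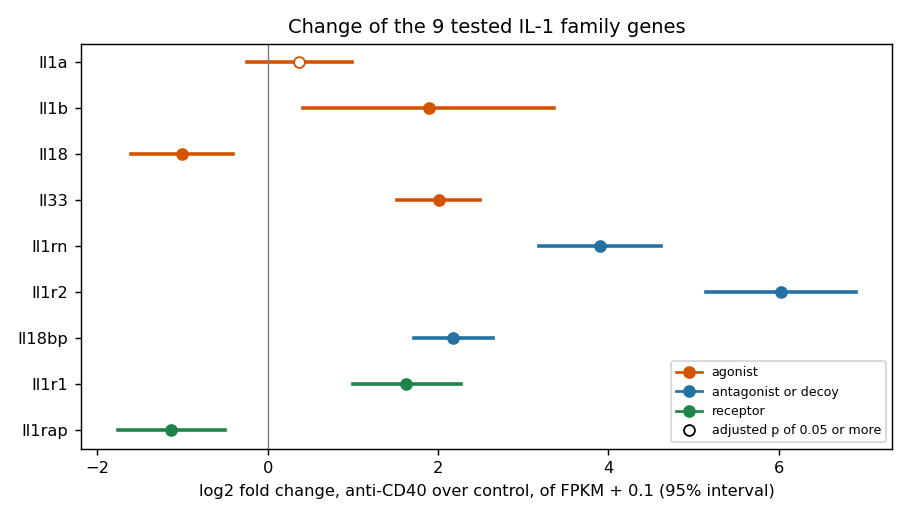
Log2 fold change of FPKM + 0.1, anti-CD40 over control, for the 9 members tested, as points with 95% intervals from limma, colored by role. Open points have an adjusted p of 0.05 or more. The 3 antagonist and decoy genes lie between 2.18 and 6.02, and the agonists between -1.0 and 2.01.

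Il1r2, the IL-1 decoy receptor (chr1:40076212-40125226), had the largest change in the family. Anti-CD40 mice 2, 5 and 9 had 15.1, 16.0 and 20.1 FPKM. In control mice 3, 4, 7, 8, 11 and 12 it was 0.368, 0.255, 0.254, 0.155, 0.01 and 0.0975. No control mouse came near the anti-CD40 range, and control mouse 11 was at the floor. In reads these values are 380, 380 and 445 after anti-CD40 and 8, 6, 6, 3, 0 and 2 in control. Il1r2 rose by 6.02 on the log2 scale (SE 0.40, adjusted p = 2.14e-06), and 21 of the 13807 genes tested rose more. Because the control level is near the floor, the size depends on the pseudocount, with 3.92 at a pseudocount of 1 and 6.87 at 0.01. Positions given with gene names are those of the deposited values, and a shared position can be wider than each gene in it. The position of Il1r2 is shared with Gm16894, and the promoter window shown for Il1r2 lies inside it. Gm16894 stayed at or below 0.208 FPKM in every mouse.

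Il1rn, which encodes the IL-1 receptor antagonist (chr2:24336860-24351491), had an FPKM of 93.0, 78.1 and 80.3 in anti-CD40 mice 2, 5 and 9. The control mice were at 3.16, 4.02, 5.23, 7.42, 5.11 and 11.0 (mice 3, 4, 7, 8, 11 and 12). The lowest anti-CD40 value was far above the highest control value, that of mouse 12. The log2 fold change was 3.90 (SE 0.32, adjusted p = 7.78e-06), a fold of 14.9, and reads rose from 133 to 436 per control mouse to 3439 to 4543 per anti-CD40 mouse.

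Il18bp, the soluble binder of IL-18 (chr7:102015077-102018155), stood at 38.0, 34.2 and 34.5 FPKM in anti-CD40 mice 2, 5 and 9. Control mice 3, 4, 7, 8, 11 and 12 had 5.60, 8.34, 7.58, 11.4, 5.97 and 8.95. The anti-CD40 mice were close together, with an SD of 0.08 on the log2 scale, and the groups did not overlap. Il18bp rose by 2.18 on the log2 scale (SE 0.21, adjusted p = 1.73e-05). The calls of Il1r2, Il1rn and Il18bp held under all 19 alternative settings of the fit.

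**Figure D2:**
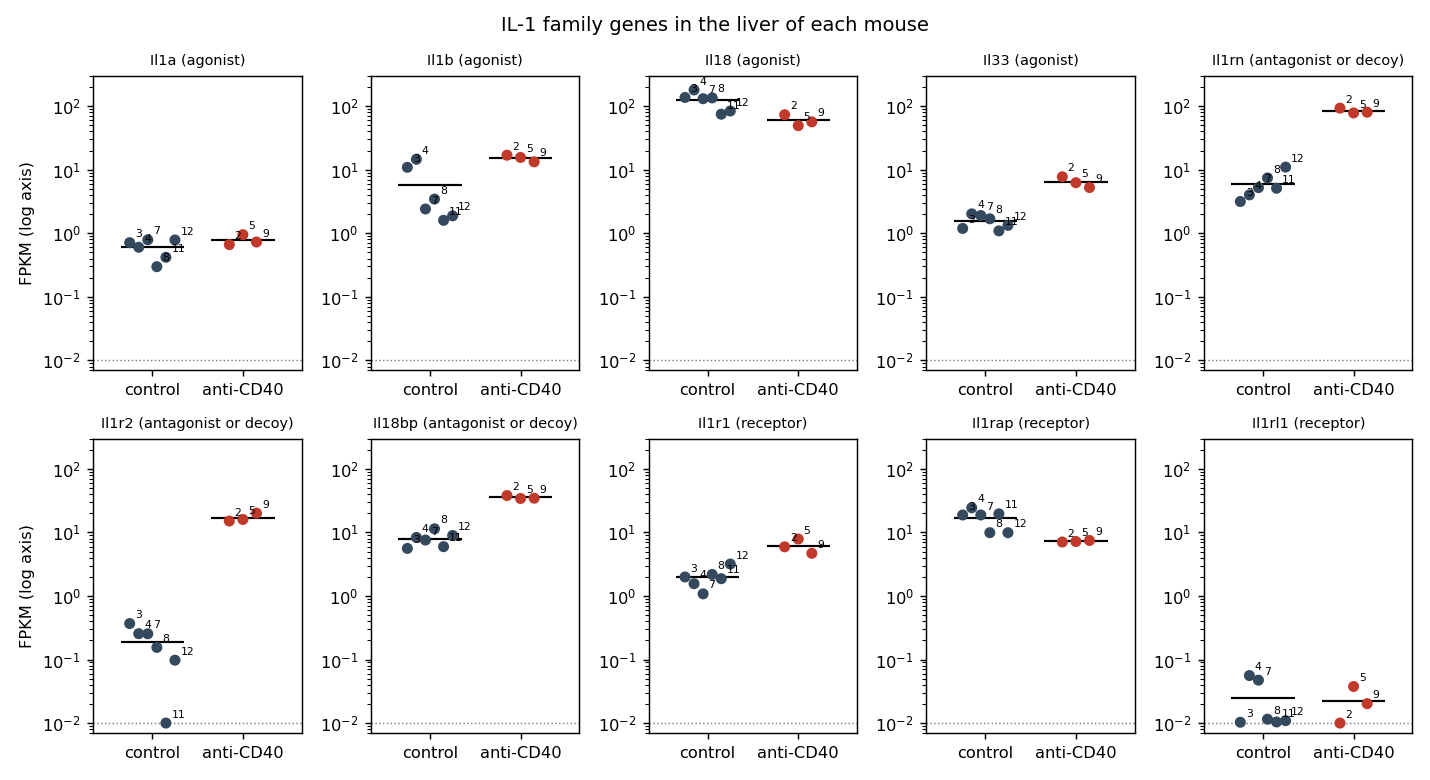
FPKM of each of the 10 members in each mouse on a log axis, with control mice in dark blue and anti-CD40 mice in red, mouse numbers beside the points, group means as bars and the floor of 0.01 as a dotted line. Il1rn, Il1r2, Il18bp, Il33 and Il1r1 show no overlap with higher anti-CD40 values, Il18 and Il1rap show none with lower values, and Il1a, Il1b and Il1rl1 overlap.

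Among the agonists, Il33 and Il1b were higher, Il18 was lower and Il1a did not pass the test. Il33 encodes an alarmin released from damaged cells (chr19:29925114-29960715). Anti-CD40 mice 2, 5 and 9 had 7.75, 6.24 and 5.24 FPKM against 1.19, 2.02, 1.90, 1.69, 1.09 and 1.33 in control mice 3, 4, 7, 8, 11 and 12. Each anti-CD40 mouse exceeded each control mouse, and the rise was 2.01 on the log2 scale (SE 0.22, adjusted p = 4.28e-05). Summed markers of 3 cell types that can hold IL-33 are given beside it. In none of the 3 lists were all tested genes called, and only the cholangiocyte list had no gene called lower. Over all genes tested, 23.5% were called higher and 21.7% lower. Of the 8 stellate cell genes, 2 were called higher and 3 lower (sum 205 to 232 after anti-CD40, 266 to 387 in control). Of the 8 sinusoidal endothelial genes, 3 were called higher and 4 lower (sum 97.2 to 103 and 103 to 129). Of the 5 cholangiocyte genes tested, 2 were called higher, Sox9 (log2 fold change 3.57) and Spp1 (2.39), while the keratin genes Krt19 and Krt7 and Epcam had log2 fold changes of 0.90, 0.19 and 0.28 and were not called. The cholangiocyte sum of 68.6 to 98.5 after anti-CD40, against 8.88 to 17.6 in control, was mostly Sox9 and Spp1. Their part in the Il33 result was not tested. In bulk tissue, fewer or more cells of a type cannot be told apart from less or more RNA per cell, and this holds for each member.

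Il1b (chr2:129364580-129375733) had 16.9, 15.6 and 13.3 FPKM in anti-CD40 mice 2, 5 and 9. In control mice 3, 4, 7, 8, 11 and 12 it had 10.9, 14.6, 2.41, 3.45, 1.60 and 1.88. Control mice 3 and 4 were high, and control mouse 4 lay above anti-CD40 mouse 9, so the groups overlapped. The control mice spread over 1.32 (SD) on the log2 scale, against 0.17 in the anti-CD40 mice. The log2 fold change was 1.89 (SE 0.66, 95% interval 0.42 to 3.36, adjusted p = 0.0387), and a 2-sided exact permutation test gave p = 0.0476. That exact permutation p was 0.0714 when any of control mice 3, 7, 8, 11 and 12 was left out. The limma call was lost when any of the 3 anti-CD40 mice or any of control mice 7, 8, 11 and 12 was left out, without the filter (adjusted p = 0.125) and with a robust fit (adjusted p = 0.0514), and the adjusted p ranged from 0.00575 to 0.125 over the alternatives. The log2 fold change itself stayed between 1.62 and 2.26. The deposited position of Il1b is shared with the antisense gene Il1bos and contains the promoter window shown for Il1b. Il1bos was at or below 0.0493 FPKM.

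Il1a (chr2:129297370-129309972), the neighbour of Il1b, was low in both groups. Anti-CD40 mice 2, 5 and 9 had 0.663, 0.949 and 0.728 FPKM, compared with 0.711, 0.602, 0.790, 0.298, 0.419 and 0.784 in control mice 3, 4, 7, 8, 11 and 12. The groups overlapped through most of their range, on 25 to 35 reads per anti-CD40 mouse and 9 to 29 per control mouse. Il1a had a log2 fold change of 0.37 with a 95% interval of -0.24 to 0.99 (adjusted p = 0.299), an interval that reaches close to a fold of 2, and quantile normalization turned the sign (-0.05). Gm14023, which shares the position of Il1a, had 0.172 to 0.571 FPKM.

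Il18 (chr9:50565368-50581837) was the agonist that fell. It stood at 73.3, 49.3 and 56.6 FPKM in anti-CD40 mice 2, 5 and 9 and at 137, 180, 131, 135, 74.7 and 83.9 in control mice 3, 4, 7, 8, 11 and 12. Control mouse 11 was only just above anti-CD40 mouse 2, although the groups did not overlap. Its change on the log2 scale was -1.0 (SE 0.27, adjusted p = 0.0109). The call was lost with quantile normalization (log2 fold change -0.67, adjusted p = 0.0804), with the genes Saa1 to Saa3 removed and the rest rescaled (-0.64, adjusted p = 0.0772), and without anti-CD40 mouse 5 (-0.88, adjusted p = 0.0532), over a range of 0.00376 to 0.0804. The Saa genes, acute phase proteins of hepatocytes, made up 25.4% to 25.9% of the summed FPKM after anti-CD40 and at most 0.380% in control. Rescaling without them raised the median of all genes to 0.35 on the log2 scale and changed the split of calls from 3240 higher and 2990 lower to 5635 and 1647, so falls are smaller under that scaling. The 7 Kupffer cell genes, summed, fell over the same groups from 302 to 481 in control to 56.2 to 73.4 after anti-CD40. Of the 7, 6 were called lower, against 21.7% of all genes tested, and Clec1b (log2 fold change -0.03) was not called. Cd5l made up most of the control sum, at 182 to 317 FPKM in control and 19.2 to 24.5 after anti-CD40. The part of the Kupffer cell genes in the fall of Il18 was not tested.

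The receptor chains moved in opposite directions. Il1r1, the signalling receptor for IL-1 (chr1:40225080-40316177), had 5.93, 7.88 and 4.69 FPKM in anti-CD40 mice 2, 5 and 9 and 1.99, 1.56, 1.08, 2.18, 1.87 and 3.18 in control mice 3, 4, 7, 8, 11 and 12. All 3 anti-CD40 mice were above all control mice, and the log2 fold change was 1.63 (SE 0.29, adjusted p = 0.001000). Il1rap, the accessory chain (chr16:26581705-26755502), had 7.07, 7.19 and 7.47 FPKM in anti-CD40 mice 2, 5 and 9. In control mice 3, 4, 7, 8, 11 and 12 it had 18.8, 24.4, 18.8, 9.90, 19.6 and 9.90. The anti-CD40 values were nearly equal and lay below every control mouse, with mice 8 and 12 the nearest. Il1rap had a log2 fold change of -1.13 (SE 0.28, adjusted p = 0.00820). With the Saa genes left out and the rest rescaled it was -0.77 (adjusted p = 0.0628), and the adjusted p ranged from 0.00260 to 0.0628 over the alternatives. Gm20319, at the same position as Il1rap, was at 0.226 to 1.28 FPKM after anti-CD40 and 1.24 to 3.29 in control, and reads of the 2 genes may have been divided between them.

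Il1rl1, the receptor for IL-33 (chr1:40429570-40465414), was hardly detected. Values were 0.01, 0.0376 and 0.0202 FPKM for anti-CD40 mice 2, 5 and 9, and 0.0103, 0.0559, 0.0473, 0.0115, 0.0104 and 0.0109 in control mice 3, 4, 7, 8, 11 and 12. These values stand for 0 to 4 reads per anti-CD40 mouse and 1 to 6 per control mouse, and since 1 read is worth about as much as the floor, a single read in mouse 2 could be hidden. With a mean FPKM of 0.0238 it was not tested with limma, and an exact permutation test gave a log2 difference of -0.01 (p = 0.952). A change of Il1rl1 was not detectable at this depth. The 8 genes of mast cells, basophils and type 2 innate lymphoid cells, which carry ST2, summed to 2.03 to 2.24 FPKM after anti-CD40 and 1.01 to 1.79 in control, with Il5 at the floor in all mice. Kit was the largest part of this sum in every mouse, at 1.54 to 1.64 FPKM after anti-CD40 and 0.771 to 1.39 in control. Of the 3 genes tested, Kit (log2 fold change 0.55) and Mcpt8 (1.27) were called higher, and Cpa3 (-0.36) was not called. Over all genes tested, 23.5% were called higher.

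Members that act on each other were then set side by side within each mouse, as the difference of their log2(FPKM + 0.1) values. Lengths cancel when such differences are compared between groups, while their absolute size cannot be read as a molar ratio. Il18bp minus Il18 rose from -3.91 ± 0.54 (SD, n = 6) in control to -0.73 ± 0.21 (SD, n = 3) after anti-CD40, a shift of 3.19 (exact permutation p = 0.0238, the smallest the 84 splits allow; adjusted over 4 pairs 0.0317). Il1r2 minus Il1r1 rose from -2.92 ± 1.03 to 1.47 ± 0.55, a shift of 4.39 with the same exact p. In reads, the anti-CD40 mice had 0.509 to 1.08 reads of the decoy Il1r2 for each read of Il1r1, against 0 to 0.0588 in control. Il1r1 minus Il1rap rose from -3.02 ± 0.96 to -0.26 ± 0.40, a shift of 2.76 with the same exact p. The groups of these 3 pairs did not overlap.

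Il1rn minus Il1b behaved differently. Anti-CD40 mice 2, 5 and 9 had 2.46, 2.32 and 2.59, and control mice 3, 4, 7, 8, 11 and 12 had -1.76, -1.84, 1.09, 1.08, 1.61 and 2.48. Control mice 3 and 4 had the lowest values, and control mouse 12 lay within the anti-CD40 range. The shift of 2.01 did not pass (exact permutation p = 0.0714, adjusted 0.0714), whereas without control mouse 12 it was 2.42 (exact permutation p = 0.0357). The anti-CD40 mice had 9.86 to 11.9 reads of Il1rn for each read of Il1b. Control mice 3 and 4 had 0.568 and 0.540, and the other control mice had 4.23 to 11.5.

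**Figure D3:**
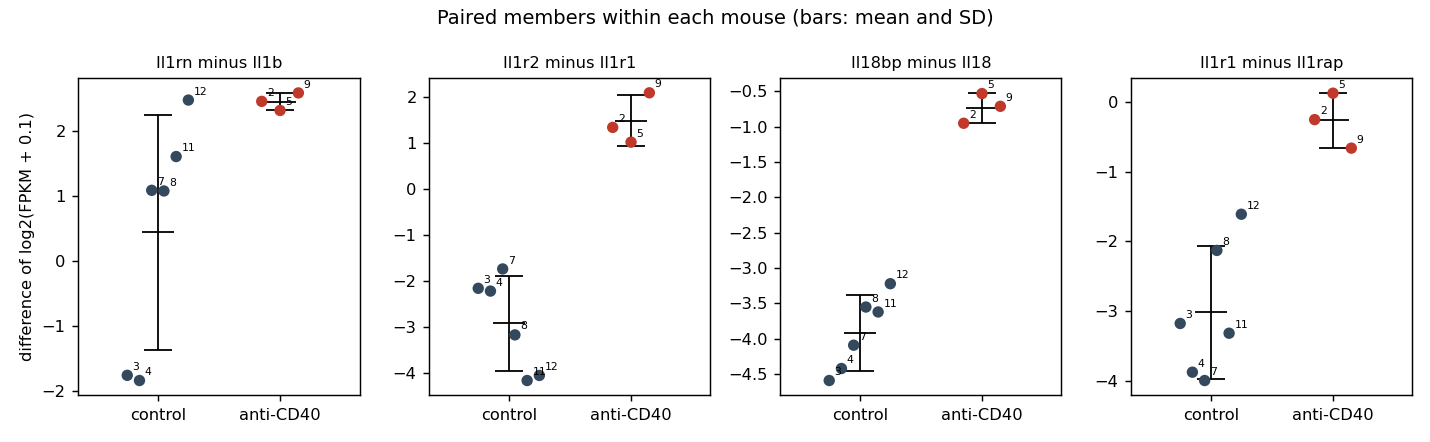
Difference of log2(FPKM + 0.1) between paired members within each mouse, with control mice in dark blue, anti-CD40 mice in red, mouse numbers beside the points and bars for mean and SD. Il1r2 minus Il1r1, Il18bp minus Il18 and Il1r1 minus Il1rap separate the groups, and Il1rn minus Il1b does not because control mouse 12, at 2.48, lies among the anti-CD40 mice.

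Markers of neutrophils, of monocytes and macrophages, and of hepatocytes are given beside the members. The 11 of 12 listed neutrophil genes that matched a row summed to 4231 to 5221 FPKM after anti-CD40 and 19.3 to 157 in control. S100a8 and S100a9 made up most of this sum in every mouse, S100a8 alone being 2916 to 3677 after anti-CD40 and 12.6 to 99.2 in control. All 10 genes tested were called higher, while over all genes tested 23.5% were higher and 21.7% lower. Mpo, the matched gene that was not tested, had 0.0578 to 0.205 FPKM after anti-CD40 and 0.01 to 0.165 in control. The listed gene without a row was Ly6g. Il1r2 and Il1rn are known to be expressed by neutrophils. Among the control mice, mouse 4 had the highest neutrophil sum and the highest Il1b (157 and 14.6 FPKM). Control mice 8, 11 and 12 had neutrophil sums of 19.3, 19.4 and 21.2 with Il1b at 3.45, 1.60 and 1.88, control mouse 3 had 33.0 with 10.9, and control mouse 7 had 84 with 2.41. The 12 monocyte and macrophage genes summed to 528 to 689 after anti-CD40 and 267 to 329 in control, with 8 called higher and 2 lower, F10 and the macrophage gene Adgre1 (log2 fold change -0.61 and -1.49). F10 is also a hepatocyte gene, and without it the other 11 genes summed to 389 to 532 after anti-CD40 and 54.4 to 100 in control. The 8 hepatocyte genes summed to 6881 to 8671 after anti-CD40 and 21039 to 36664 in control, 6 of them called lower and none higher. The part of these cells in the member results was not tested. With anti-CD40 mouse 5 and control mouse 4 both left out, 6 members were called higher and 1 lower, Il18 being the call that was lost (-0.75, adjusted p = 0.0540).

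**Figure D4:**
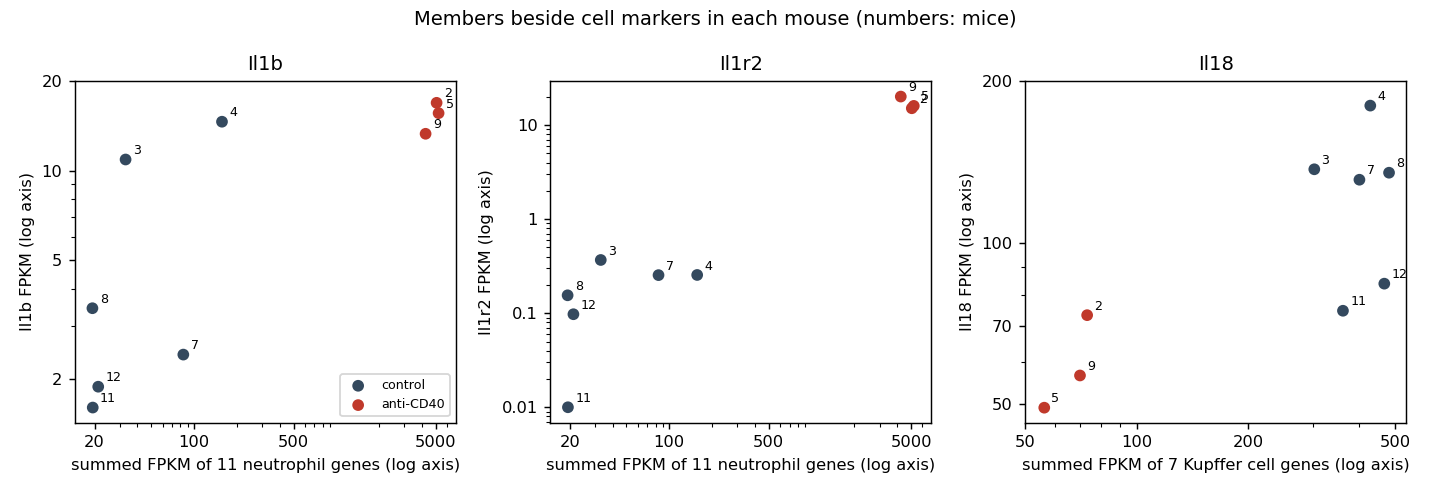
Il1b and Il1r2 against the summed FPKM of 11 neutrophil genes, and Il18 against that of 7 Kupffer cell genes, in each mouse on log axes, with control mice in dark blue, anti-CD40 mice in red and mouse numbers beside the points. The neutrophil sum is mostly S100a8 and S100a9. Control mice 3 and 4 reach Il1b values of 10.9 and 14.6 at neutrophil sums of 33.0 and 157, whereas no control mouse exceeds 0.368 FPKM of Il1r2.

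Related genes of the family lie next to the members in clusters. On chromosome 1 the order is Il1r2, Il1r1, Il1rl2, Il1rl1, Il18r1 and Il18rap. Of these 6 neighbours, 4 were higher after anti-CD40 and 2, the IL-36 receptor gene Il1rl2 and Il1rl1, were too low to be tested. Il18r1, the IL-18-binding receptor chain, had 1.71 to 2.1 FPKM after anti-CD40 and 0.112 to 1.27 in control (log2 fold change 1.87, SE 0.53, adjusted p = 0.0146; 0.0590 without the filter, over a range of 0.00363 to 0.0590). Il18rap, the accessory chain for IL-18, had 0.481 to 0.560 and 0.0339 to 0.134 (log2 fold change 1.83, SE 0.22, adjusted p = 9.79e-05). At a pseudocount of 1 these changes were 0.95 for Il18r1 and 0.50 for Il18rap, and at 0.01 that of Il18rap was 2.71. The ligand fell while both receptor chains and the soluble binder rose, although the call of Il18 was lost under 4 of the 19 alternatives. T and NK cells carry the IL-18 receptor, and their 9 matched genes summed to 73.5 to 99.5 after anti-CD40 and 5.48 to 16.0 in control. Gzma alone made up most of the sum after anti-CD40 (57.7 to 79.6 FPKM, against 1.58 to 10.1 in control). Of the 9 genes, 8 were called higher, against 23.5% of all genes tested. Their median log2 fold change was 1.30, with Gzma at 4.47, Cd3e at 0.78 and Cd4 at 0.49, which was not called. The part of these cells was not tested.

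Of the 5 other ligand genes, all within the chromosome 2 cluster that ends with Il1rn, only Il1f9 passed the filter. Il1f9, which encodes the epithelial agonist IL-36γ, had 1.03, 1.33 and 0.714 FPKM in anti-CD40 mice 2, 5 and 9 and 0.01 to 0.101 in control. It stood on 33, 40 and 20 reads against 0 to 3 in control, and its log2 fold change was 2.86 (SE 0.29, adjusted p = 2.62e-05). The size again depends on the pseudocount, with 0.93 at a pseudocount of 1 and 4.26 at 0.01. Il1f6, Il1f8 and Il1f10 were listed at the floor in all 9 mice, and Il1f5, the IL-36 receptor antagonist, reached 0.0318 in 1 control mouse. Among the other receptor genes, Sigirr, an inhibitory receptor of the family, had 3.06 to 3.55 FPKM after anti-CD40 and 4.32 to 5.13 in control (log2 fold change -0.48, SE 0.11, adjusted p = 0.00631). That call was lost with the Saa genes left out and the rest rescaled (-0.12, adjusted p = 0.388, over a range of 0.00124 to 0.388). Il1rapl1 and Il1rapl2, known mainly from neurons, did not exceed 0.0231 in any mouse.

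**Figure D5:**
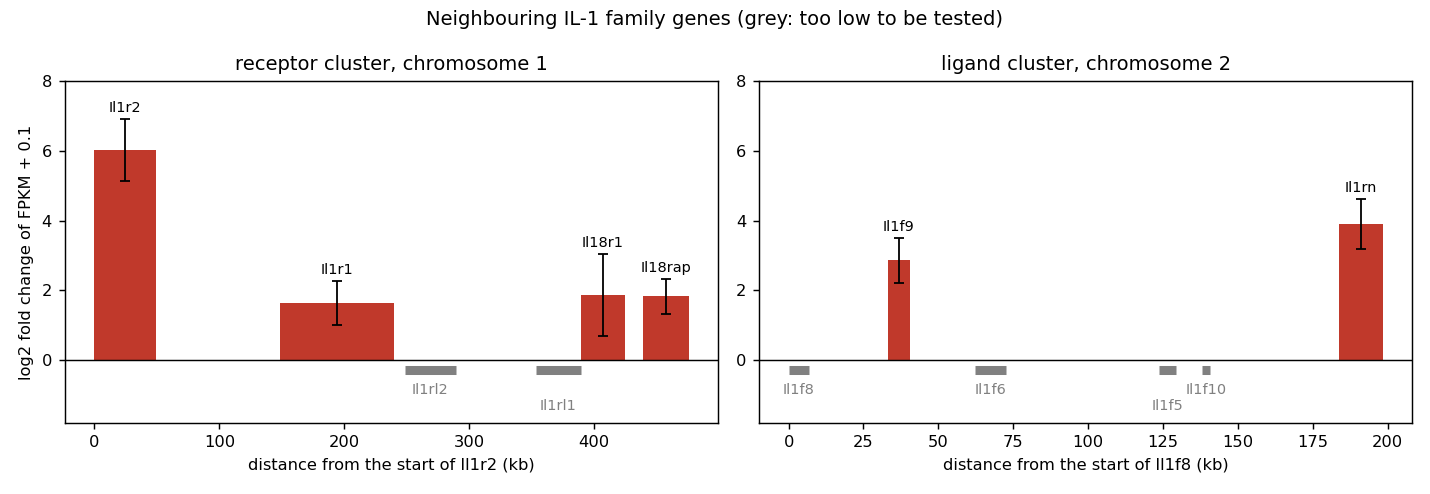
Log2 fold change of FPKM + 0.1 (bars with 95% intervals) for the receptor cluster on chromosome 1 and the ligand cluster on chromosome 2. Bars are as wide as the deposited position of each gene, which for Il1r2 is shared with Gm16894. Distances in kb run from the start of the deposited position of Il1r2 and of Il1f8. Red genes were called higher, and grey blocks mark genes too low to be tested. The end genes Il1r2 (6.02) and Il1rn (3.90) have the larger changes among the tested genes of their clusters, although Il1f9 (4.26) exceeds Il1rn (3.92) with a pseudocount of 0.01.

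Downstream of the receptors, the 16 genes of the signalling list did not move one way. With 3 higher, 3 lower and 10 not called, their median log2 fold change was 0.02. Over all genes tested 23.5% were higher and 21.7% lower, so these counts do not set the list apart from other genes. Irak3, which encodes the inhibitory kinase-like protein IRAK-M, rose from 0.401 to 1.26 FPKM in control to 6.29 to 7.08 after anti-CD40 (log2 fold change 3.18, SE 0.28, adjusted p = 1.24e-05). The adaptor Myd88 rose by 0.84 (SE 0.15, adjusted p = 0.00118), from 6.47 to 10.8 FPKM to 14.5 to 16.3. Chuk, the IKKα kinase, was lower by a log2 fold change of -0.87 (SE 0.20, adjusted p = 0.00462), a call that was lost with the Saa genes left out and the rest rescaled (-0.51, adjusted p = 0.0762, over a range of 0.000496 to 0.0762). The other called genes, named after their values were seen, were Tab2 (log2 fold change 0.51), Map3k7 (-0.77) and Tab1 (-0.62), which together form the TAK1 kinase complex. The kinases Irak1 and Irak4 and the ligase Traf6 had log2 fold changes of -0.12, 0.34 and -0.06 and were not called.

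The genes listed for the processing of IL-1 and IL-18 precursors were mostly higher. Of the 9 tested, 8 were called higher and none lower, with a median log2 fold change of 1.82. Over all genes tested, 23.5% were higher and 21.7% lower. Nek7, named after its value was seen, was the 1 not called (log2 fold change 0.00). Pycard, the inflammasome adaptor ASC, rose from 1.23 to 2.92 FPKM in control to 14.5 to 20.6 (log2 fold change 3.01, SE 0.24, adjusted p = 6.14e-06). Casp4, the caspase that senses cytosolic LPS, rose from 0.428 to 0.783 to 4.20 to 6.82 (log2 fold change 2.94, SE 0.21, adjusted p = 2.88e-06). Prtn3, a neutrophil protease that can cleave IL-1 precursors, had 4.18 to 8.23 and 0.461 to 2.98 (log2 fold change 2.69, SE 0.48, adjusted p = 0.00114), but its position is pooled in the table with that of 48 other genes, so its reads may be shared. Casp1 itself had 1.5 to 2.31 FPKM after anti-CD40 and 0.361 to 1.22 in control (log2 fold change 1.33, SE 0.33, adjusted p = 0.00817). Elane, under the filter, was not tested.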

How the data were processed

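RNA from the livers of 9 mice (3 anti-CD40, 6 control, grouped by the sample labels) was sequenced with the QuantSeq 3′ FWD kit on an Illumina NextSeq. The authors aligned reads with STAR to mm10 and deposited FPKM from Cufflinks, with a floor of 0.01. The annotation, filter and strand setting are not given in the sources used here, nor are read totals. After 15 genes with a failed estimate were left out, log2(FPKM + 0.1) of the 13807 genes averaging 0.1 FPKM or more was tested with limma 3.58.1 in R 4.3.3 (lmFit, eBayes with trend, 2-sided, Benjamini-Hochberg over all genes, threshold 0.05). Single members and paired differences were tested with a 2-sided exact permutation test (84 splits, smallest p 0.0238). Python 3.11.15, numpy 2.4.6, pandas 2.3.3, scipy 1.17.1 and matplotlib 3.10.9 did the rest.

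Whole reads were recovered from value steps (tolerance 0.1 read; 89.3% of 2921 low genes whole in every mouse) for description only, in 8 of 10 members, so no count test was run. The scripts were tested on simulated data. Members, lists and tests were chosen with earlier results of these data known. Named were all members and, of each related list, the 3 called genes with the largest change plus ligands and receptors under the filter. Casp1, Irak1, Irak4, Traf6 and marker genes are named for their role. Position-sharing genes were read from the deposited table, and coding lengths from GENCODE M21. Alternatives were a pseudocount of 1 or 0.01, no filter on low genes, a filter at an average of 1 FPKM, quantile and median of ratios scaling, leaving out Saa1, Saa2 and Saa3 with rescaling, eBayes without trend or robust, and leaving out each mouse. Leaving out anti-CD40 mouse 5 with control mouse 4 was added after seeing the data, as was the monocyte and macrophage sum without F10. The mice are separate animals of 1 experiment. The study left out some anti-CD40 mice by their blood B cells, and whether this applied here is not stated.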

Additional observations from a re-analysis of the deposited data

Results flagged for a closer look

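Prtn3, a neutrophil protease gene among the processing genes, had 1 control mouse far from the others. Control mouse 12 stood at 2.98 FPKM and the next control mouse at 1.01, so the gap took 0.782 of the range of the 6 control mice, above Dixon's 95% limit for 6 values. Of 24 members, related genes and paired differences checked this way 1 passed the limit, and chance passes about 1 in 20. Prtn3 shares its position in the table with 48 other genes. No cause was tested.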

How the results depend on the processing

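No paired analysis was possible because the 2 groups share no mouse number. Il33, Il1rn, Il1r2, Il18bp and Il1r1 kept their direction and their call under all 19 alternatives, and the members called higher numbered 5 or 6. The members called lower numbered 2, but 1 with quantile normalization, 0 without Saa1, Saa2 and Saa3 and rescaled, 1 without anti-CD40 mouse 5 and 1 with control mouse 4 and anti-CD40 mouse 5 both left out, and leaving out each mouse in turn gave 1 to 2. Without the Saa genes and rescaled, 5635 genes were called higher, 1647 lower, and 1 related gene lower (4 as reported). The shift of Il1rn minus Il1b passed with a pseudocount of 1 (2.07), with quantile normalization (2.24) and without control mouse 12 (2.42), and lay between 1.55 and 2.42 with each control mouse left out in turn. The sign of Il1a turned with quantile normalization (-0.05), and that of the untested Il1rl1 with a pseudocount of 0.01 (0.04), without the Saa genes (0.05), and without control mouse 4 or 7 (-0.04 to 0.06 with each control mouse left out in turn). Of 457 values of single genes under alternatives, 425 kept direction and side of the threshold, 25 lost and 1 gained a call, and 6 changed sign. The cause was not tested, apart from the Saa rescaling, which raises every other gene in the anti-CD40 mice. Exact tests were not repeated without an anti-CD40 mouse, since 2 against 6 cannot go below 0.0714. Il1rl1, Il1a and the controls of Il1r2 and Il1f9 rest on few reads, which limits their precision.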
